A study of Mus musculus with 4 samples.

Results

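The SREBP pathway and sterol uptake genes are a named set of 8 genes: the transcription factors Srebf1 and Srebf2, their regulators Insig1, Insig2, Scap and Mbtps1, the sterol carrier Stard4 and the lipoprotein receptor Scarb1. They were taken by gene symbol, with every probe set that the platform annotation gives to 1 of these symbols. Probe sets were found for 7 of the 8 genes, 15 in all, among 12393 genes and 22626 probe sets tested. Insig1 had no probe set in the annotation used, so it was not analysed here and the contrast of Insig1 with Insig2 was not made. Sterol uptake is represented by Scarb1 alone.

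The mice were wild type, C57/BL6 and 1 month of age; 2 had been starved for 24 h and 2 served as controls. Each array was made from total RNA of a whole liver, and the labels call the arrays of a group biological replicates. The description field speaks instead of injected and not-injected mice, so the groups follow the titles and the treatment field. The labels used here give neither the sex of the mice nor how the controls were fed. Signals are given as log2 values from RMA, and each change is starved minus control, from the group means. Because whole liver was measured, fewer cells of a type and less RNA per cell cannot be told apart.

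SREBPs are transcription factors made as inactive proteins in the membrane of the endoplasmic reticulum. The escort protein SCAP carries them to the Golgi apparatus when sterols are low, where the site-1 protease encoded by Mbtps1 makes the first cleavage that frees the active part. INSIG proteins hold SCAP and its cargo in the endoplasmic reticulum when sterols are plentiful. SREBP-1c drives fatty acid synthesis in liver and its gene is induced by insulin and by the oxysterol receptor LXR, while SREBP-2 drives cholesterol synthesis.

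The start regions of both SREBP genes are shown because the design of the comparison sets one factor against the other. The promoter sequences are from RefSeq, build GRCm38.p6, and run from 250 bases before to 50 bases after an annotated start. RefSeq windows were matched for Srebf1 (3), Srebf2 (1), Insig1 (1), Insig2 (3), Scap (2) and Mbtps1 (1). Capitals mark the SRE core TCACNCCA, a letter pattern of the sterol regulatory element, and the CCAAT box, CCAAT, on either strand. The final CCA of the SRE core can be the first letters of a CCAAT box, but in these windows the matches are apart.
Srebf2, chr15:82147019-82147318, plus strand: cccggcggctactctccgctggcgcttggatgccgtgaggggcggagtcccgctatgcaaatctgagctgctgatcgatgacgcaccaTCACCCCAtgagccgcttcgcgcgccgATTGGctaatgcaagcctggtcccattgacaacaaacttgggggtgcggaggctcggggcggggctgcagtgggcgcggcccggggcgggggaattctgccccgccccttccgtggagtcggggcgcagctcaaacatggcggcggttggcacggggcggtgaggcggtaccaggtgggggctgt
Srebf1, chr11:60210422-60210721, minus strand: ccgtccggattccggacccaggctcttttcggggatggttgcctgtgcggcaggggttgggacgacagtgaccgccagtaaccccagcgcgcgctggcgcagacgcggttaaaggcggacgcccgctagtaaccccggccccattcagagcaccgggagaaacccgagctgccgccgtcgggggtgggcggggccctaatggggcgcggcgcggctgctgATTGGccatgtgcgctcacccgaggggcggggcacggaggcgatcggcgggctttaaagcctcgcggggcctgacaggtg

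The Srebf2 window holds 1 SRE core, starting at position -162 from the start site, and 1 CCAAT box in reverse orientation at -135. The SRE core is present in 4.36% of 32851 RefSeq windows of the same length, and the CCAAT box in 37.4%. The Srebf1 window shown holds a reverse CCAAT box at -30 between GC boxes (GGGCGG, in 35.7% of windows) at -65 and -6, and no SRE core. In the Srebf2 window there are 5 GC boxes on either strand, at -211, -79, -52, -34 and 20. Its CCAAT box thus lies between GC boxes as well. Among the windows of these 6 genes the SRE core was found in the Srebf2 window only. The pattern was also missing from most of the SREBP-2 targets listed below, and 2 of 15 with a window held it (13.3%). So did 1 of 14 SREBP-1 targets (7.14%) and 4.97% of all genes with a window. Its absence from a window therefore does not show that a sterol regulatory element is missing. A match is a description of letters and says nothing about binding in these livers.

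The data show a large difference for Srebf1 and Stard4, lower in both starved livers, and small or inconsistent differences for the other 5 genes. None of the 15 probe sets passed the test over the whole array. The test was limma with the Benjamini-Hochberg adjustment over all probe sets and a threshold of 0.05, which 13 probe sets (0.0575%) passed, 0.0398% lower and 0.0177% higher in starved liver. By gene the share was 0.0646%. At an unadjusted p under 0.05 in limma, 4 of the 15 member probe sets were lower and 0 higher, where 6.04% of all probe sets were lower and 5.42% higher. Those 4 belong to Srebf1, Srebf2 and Stard4. In 6 of the 15 both starved arrays lay below both control arrays, as in 20.6% of all probe sets, and in 0 did both lie above, as in 21.3%. By brightest probe set, 2 of the 7 genes were lower at the unadjusted p and 0 higher, where 6.05% of all named genes were lower and 5.31% higher. The groups did not overlap in 4 of the 7, all lower in starved liver, where 20.9% of named genes were lower and 21.4% higher in this way. Over the 7 genes the median change was -0.18, and over all named genes it was 0.00307.

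**Figure D1:**
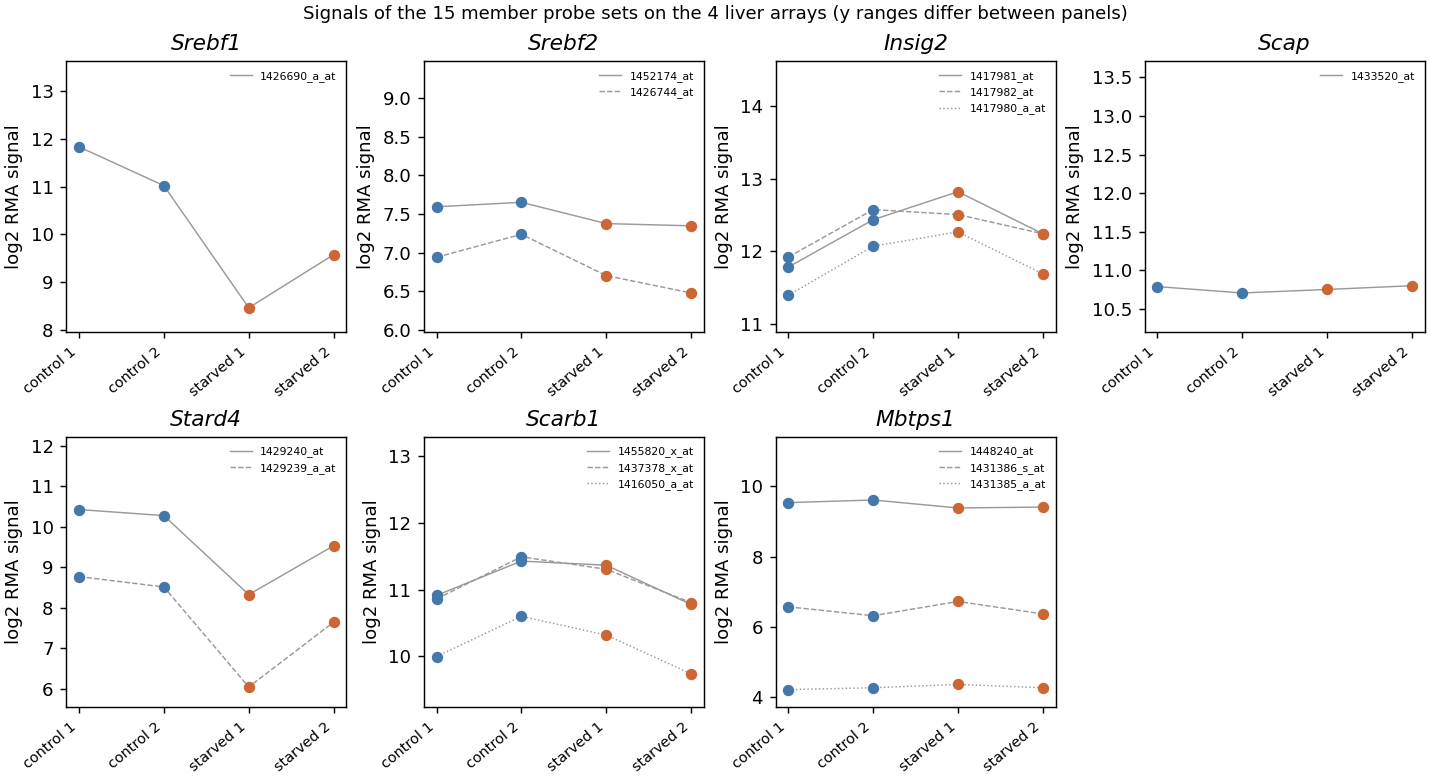
Log2 RMA signal (y axis) of the 15 member probe sets on the 4 arrays (x axis), 1 panel per gene, with blue points for control and orange for starved livers; grey lines join the values of 1 probe set and do not stand for an order of the arrays. Srebf1 and both Stard4 probe sets are lowest on starved 1, and the y ranges differ between panels.

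Srebf1, the factor gene that insulin induces, read 11.84 and 11.02 in the control livers and 8.46 and 9.57 in the starved livers. Both starved values lay below both control values, and starved 1 was the lowest. The means were 11.43 ± 0.58 and 9.02 ± 0.79 (SD, n = 2 per group), a 5.33-fold lower signal in starved liver. The log2 change was -2.41 ± 0.42 (SE), with a 95% interval of -3.45 to -1.38 in limma. The unadjusted p was 0.00133 and the adjusted p 0.131, so the gene did not pass the test. By size it ranked as the 20th lowest change of all 22626 probe sets, and by p as the 229th. The spread within groups was also wide, and the starved arrays differed by 1.12, at the 99.5th percentile of such absolute gaps over all probe sets. The probe set is of the type that matches several transcripts of 1 gene, so the SREBP-1a and SREBP-1c transcripts were not told apart.

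Srebf2 encodes the factor of cholesterol synthesis. Its brighter probe set read 7.59 and 7.65 in control and 7.38 and 7.35 in starved livers. Both probe sets were lower in starved liver without overlap, by small amounts. The brighter one changed by -0.26 ± 0.11 (SE; 95% interval -0.54 to 0.016) and the other, at 6.94 and 7.24 against 6.70 and 6.48, by -0.50 ± 0.16 (-0.88 to -0.11). Their adjusted p-values in limma were 0.454 and 0.329. Their mean signals lay at the 60.7th and 51.8th percentiles of all probe sets, and that of Srebf1 at the 88.7th.

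The contrast of the factors asks whether Srebf1 and Srebf2 changed by unequal amounts. The Srebf1 change minus the Srebf2 change was -2.15 ± 0.72 (SE) on the log2 scale, or -1.92 ± 0.87 with the other Srebf2 probe set. Srebf1 minus Srebf2, set to 0 at the control mean, was 0.44 and -0.44 in the control livers and -2.73 and -1.58 in the starved livers. The groups were therefore apart on every array. The exact two-sided permutation test over the 4 arrays gave p = 0.333 for both pairs, the smallest value that 2 against 2 arrays allow, so it could not have passed. The contrast was the 1 that could be computed, and no adjustment over contrasts changes it.

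**Figure D2:**
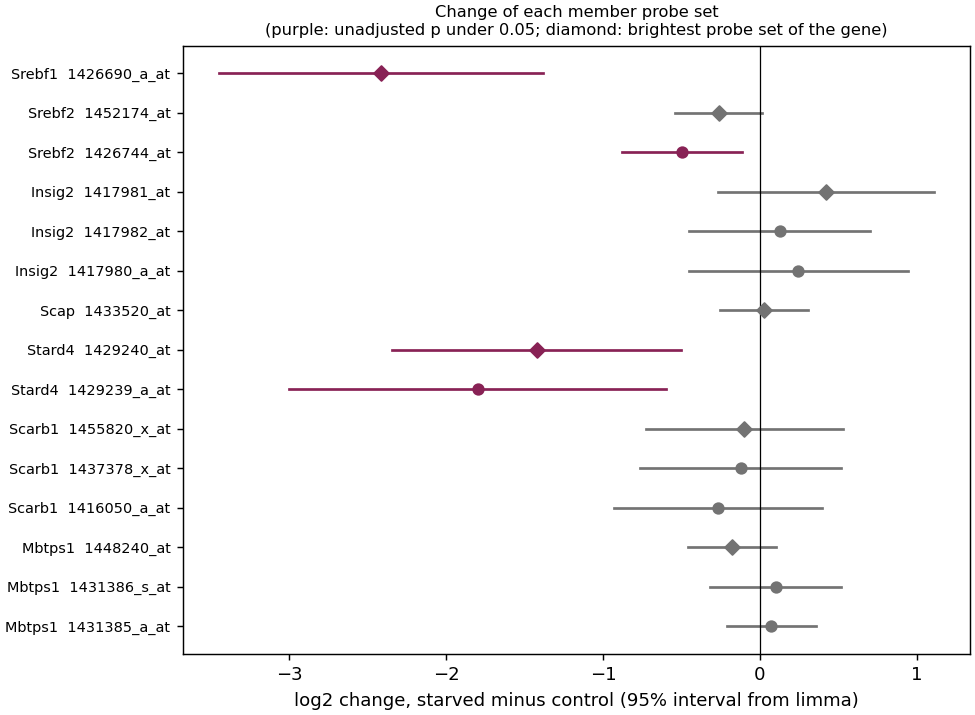
Log2 change, starved minus control, of each member probe set (x axis) with its 95% interval from limma; diamonds mark the brightest probe set of a gene and purple an unadjusted p under 0.05. Srebf1 at -2.41 and the Stard4 probe sets at -1.42 and -1.80 lie farthest from 0, and the intervals of Insig2, Scap, Scarb1 and Mbtps1 all span 0.

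The genes that hold and cut SREBPs showed no difference past the test. Scap, the sterol-sensing escort, read 10.79 and 10.71 in control and 10.75 and 10.80 in starved livers. The groups overlapped, and the change was 0.028 ± 0.11 (SE), with an interval of -0.25 to 0.31. The interval holds differences of either sign, so equal levels were not shown.

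Mbtps1, the site-1 protease, read 9.54 and 9.61 in control and 9.39 and 9.41 in starved livers on its brightest probe set. Both starved values were lower, by -0.18 ± 0.11 on average (SE; interval -0.46 to 0.10; limma, adjusted p = 0.624). Its other probe sets went the other way, with changes of 0.10 and 0.073 and overlapping groups. One of these, at signals of 4.22 to 4.37, had a mean at the 12.4th percentile of all probe sets. The mean of the 3 probe sets of the gene changed by -0.00037, so the direction of Mbtps1 was not settled.

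Insig2 encodes the INSIG protein whose liver transcript is known to be lowered by insulin. Its brightest probe set read 11.78 and 12.43 in control and 12.82 and 12.24 in starved livers. The groups overlapped because control 2 was above starved 2. The change was 0.42 ± 0.28 (SE), with an interval of -0.26 to 1.11 and an adjusted p of 0.634 in limma. The other probe sets changed by 0.25 and 0.13, so all 3 were higher on average and 0 passed. Control 1 was the lowest array in all 3, and the control livers differed by 0.65 to 0.68. Without control 2 the change was 0.75, with an unadjusted p of 0.0334 and an adjusted p of 0.467 in limma. Without starved 1 it was 0.13 for this probe set and -0.0063 for another of the 3, which was then the brightest.

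Stard4 encodes a soluble protein that carries cholesterol between membranes and is a known SREBP-2 target. Its brighter probe set read 10.42 and 10.27 in control and 8.32 and 9.53 in starved livers. The control livers were close together, and the starved livers were both lower but 1.21 apart. The log2 change was -1.42 ± 0.37 (SE; interval -2.34 to -0.50), which is 2.68-fold lower. The other probe set read 8.77 and 8.51 against 6.04 and 7.64, a change of -1.80 ± 0.49 (interval -3.0 to -0.60) or 3.48-fold lower. The unadjusted p-values were 0.00932 and 0.0108, and the adjusted values 0.263 and 0.273 in limma. These changes were the 73rd and 39th lowest of all probe sets. Most of the size came from 1 array: without starved 1 the change of the brighter probe set was -0.82, and without starved 2 it was -2.03.

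Scarb1 encodes SR-BI, the receptor through which liver takes up cholesterol from high density lipoprotein. Its brightest probe set read 10.91 and 11.43 in control and 11.37 and 10.78 in starved livers. All 3 probe sets put the arrays in the same order, with control 2 highest, then starved 1, control 1 and starved 2. The groups overlapped in each. The changes were -0.099 ± 0.25, -0.12 ± 0.26 and -0.27 ± 0.27 (SE), and the interval of the first was -0.72 to 0.53. Of these probe sets 2 are of the _x_at type, which can pick up related transcripts. The direction turned to 0.16 without control 2 and to 0.20 without starved 2.

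**Figure D3:**
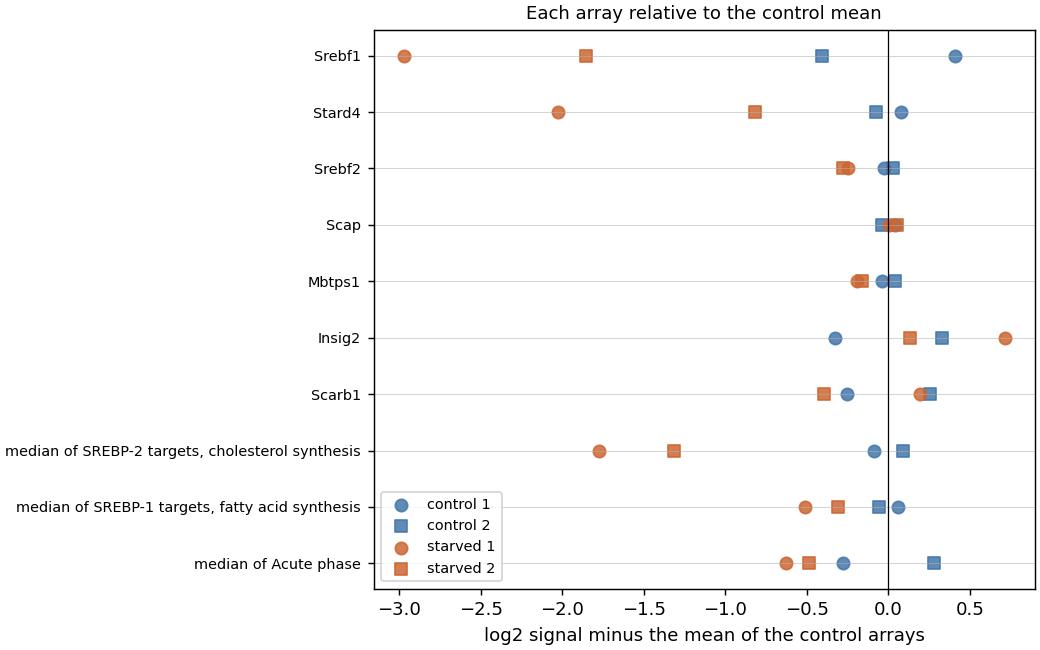
Log2 signal of each array minus the mean of the control arrays (x axis) for the brightest probe set of each member gene and for the medians of 3 gene lists; circles are replicate 1, squares replicate 2, blue control and orange starved. Srebf1, Stard4, Mbtps1, Scap and all 3 list medians are lower on starved 1 than on starved 2; for Srebf1, Stard4 and the cholesterol synthesis list starved 1 is at -2.97, -2.03 and -1.78 and starved 2 at -1.86, -0.82 and -1.31.

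The same order of the starved arrays was seen in the medians of the SREBP-2 targets of cholesterol synthesis, the SREBP-1 targets of fatty acid synthesis (-0.51 on starved 1 and -0.31 on starved 2, relative to the controls) and the acute phase genes (-0.63 and -0.48). Of 18 measured SREBP-2 targets, 17 read lower on starved 1 than on starved 2, and the median gap over all 18 was 0.59. The corresponding count among 16 SREBP-1 targets was 8. The gap between the 3′ and 5′ actin control probe sets, which widens as RNA degrades, was 2.06 on starved 1, 1.85 on starved 2, and 1.79 and 1.76 on the controls. For Gapdh it was 0.86, 0.48, 0.65 and 0.54 in the same order. On starved 2, where the actin gap was above and the Gapdh gap below both controls, Srebf1 and Stard4 also read below both controls. The part of RNA integrity in the low starved values was not tested.

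Srebf1 and Stard4 were each lower at an unadjusted p under 0.05 in 12 of 12 alternative analyses. The alternatives refit the same 4 arrays, some with 1 array left out, so they are not independent of each other. Where all 4 arrays were kept, the p in limma ran from 0.00113 to 0.00675 for Srebf1 and from 0.00837 to 0.0184 for Stard4. In 0 of these did either pass after adjustment, with adjusted p-values of 0.122 to 0.276 and of 0.227 to 0.334. With 1 array left out, the change ran from -2.97 to -1.86 for Srebf1 and from -2.03 to -0.82 for Stard4.

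The genes around the members were described through 5 lists drawn from textbook knowledge and chosen with earlier results of these data known. Of 19 measured genes of SREBP processing and turnover, 3 of them members, 0 passed the adjusted test and the median change was 0.028. At an unadjusted p under 0.05, 2 were lower and 0 higher, where 6.05% of all named genes were lower and 5.31% higher. Rnf145, a sterol-responsive ubiquitin ligase, changed by -0.45 ± 0.18 (SE), the COPII coat gene Sec13 by -0.33 ± 0.13, Erlin1, which encodes an endoplasmic reticulum protein that binds cholesterol, by -0.50 ± 0.21, and the COPII gene Sec23a by 0.25 ± 0.12. The median was -0.091 without control 2.

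The SREBP-2 targets of cholesterol synthesis were lower throughout. At an unadjusted p under 0.05, 18 of 18 measured genes were lower, where 6.05% of all named genes were lower and 5.31% higher. After adjustment 1 of the 18, Nsdhl, passed, where 0.0646% of all named genes passed in either direction. The median change was -1.65, against 0.00307 over all named genes. Nsdhl, a sterol dehydrogenase, fell by 2.61 on the log2 scale (adjusted p = 0.0379, limma). The changes of Lss, the lanosterol cyclase, Dhcr7, the last reductase, and the retinol dehydrogenase Rdh11 were -1.47 ± 0.14, -1.82 ± 0.18 and -2.0 ± 0.26 (SE). Their brightest probe sets did not pass, with adjusted p-values of 0.0567, 0.0573 and 0.0853, while a second Rdh11 probe set did (-1.74, adjusted p = 0.0379). The list has changes from -3.40 to -0.39, and Srebf2 itself changed by -0.26 on its brighter and -0.50 on its other probe set.

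The SREBP-1 targets of fatty acid synthesis split. At an unadjusted p under 0.05, 7 of 16 measured genes were lower and 0 higher, against 6.05% and 5.31% of all named genes. The median change was -0.37. Averaging the probe sets of each gene put that median at -0.64. Elovl6, an elongase of long-chain fatty acids, fell by 1.47, and Acly, which makes cytosolic acetyl-CoA, fell by 1.55 (adjusted p = 0.0379 for both, limma). Thrsp, a regulator of lipogenesis, changed by -2.95 ± 0.32 (SE) and Acss2, which activates acetate, by -1.03 ± 0.15, neither past the test. The brightest Acly probe set is of the _x_at type, and another that is not also passed (-1.72). The probe sets of Scd1, the stearoyl-CoA desaturase, disagreed in size: the brightest, near the top of the signal range, had a change of -0.28 and the other of -2.46, neither past the test. Scd1 was picked with its values in view.

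**Figure D4:**
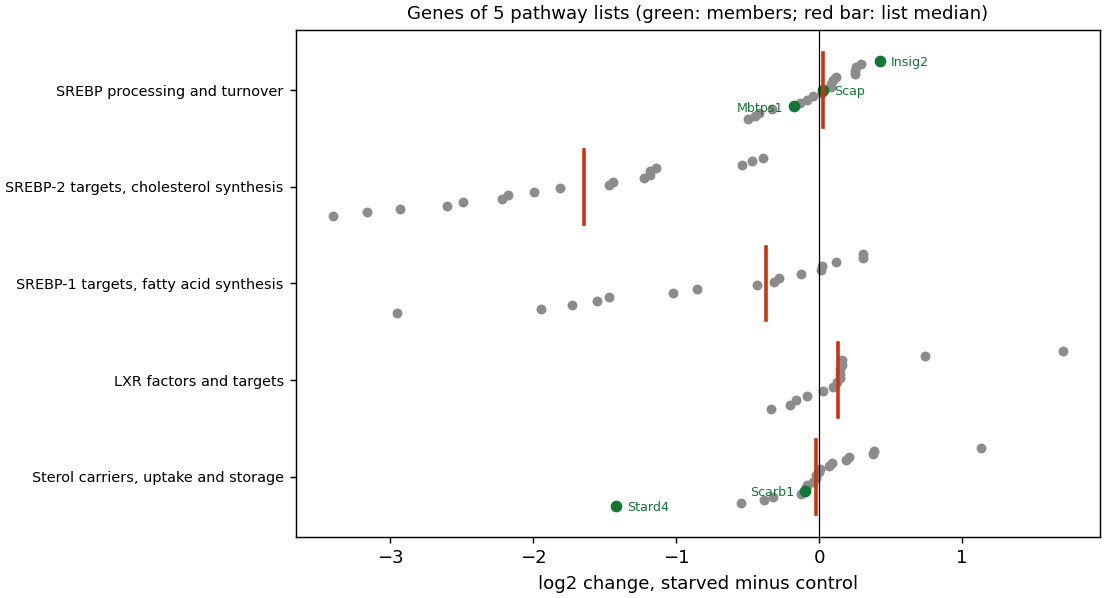
Log2 change, starved minus control (x axis), of each measured gene of the 5 pathway lists (rows), with member genes in green and the list median as a red bar. The median is -1.65 for the SREBP-2 targets and -0.37 for the SREBP-1 targets, and the other medians lie between -0.024 and 0.13.

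The list of LXR, its partner receptors and its targets had changes of both signs, 10 higher and 4 lower. At an unadjusted p under 0.05, 2 of 14 measured genes were higher and 0 lower, against 5.31% and 6.05% of all named genes. In this list 0 passed the adjusted test, and the median was 0.13, or 0.049 without control 2. Cyp7a1, which starts the classical route to bile acids, changed by 1.71 ± 0.35 (SE), and Mylip, a ubiquitin ligase for lipoprotein receptors, by 0.74 ± 0.28. The LXR gene Nr1h3 changed by -0.20 ± 0.12 and the cholesterol exporter Abca1 by -0.16 ± 0.12. None of these 4 passed.

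Other genes of sterol carriage, uptake and storage had changes of both signs. Of 20 measured genes, Stard4 and Scarb1 among them, 0 passed the adjusted test, and the median was -0.024. At an unadjusted p under 0.05, 3 were lower and 2 higher, where 6.05% of all named genes were lower and 5.31% higher. Cd36, a fatty acid and lipoprotein receptor, changed by 1.13 ± 0.30 (SE). The endocytic receptor Lrp1 changed by -0.55 ± 0.15, its chaperone Lrpap1 by -0.33 ± 0.11 and the oxysterol-binding protein gene Osbpl1a by 0.38 ± 0.14. The START family relative Stard5, picked with its values in view, had changes of 0.38, 0.46 and 0.39 on its 3 probe sets, opposite in sign to Stard4 and not past the test.

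Over the 4 arrays, the 3 genes nearest to Srebf1 in profile were Nsdhl, Mid1ip1 and Cyp51. Likeness was the Euclidean distance between 4 mean-centred log2 values, among 7000 genes with a mean at or above the median of all probe sets. The distances were 0.63, 0.71 and 0.74. Nsdhl and Cyp51 belong to the SREBP-2 list and Mid1ip1, which activates acetyl-CoA carboxylase, to the SREBP-1 list. Nearest to Insig2 were Blcap, Gsto1 and Lgalsl, at 0.18, 0.19 and 0.19. These are descriptions of 4 arrays with no test.

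The arrays carried the hepatocyte markers at high signal, with a mean over 10 genes of 14.40 and 14.32 in control and 14.47 and 14.29 in starved livers. Of 55 markers of 8 other cell types, 6 were higher and 3 lower at an unadjusted p under 0.05, where 5.31% of all named genes were higher and 6.05% lower, and 0 passed the adjusted test in limma. The higher markers were Lyve1 of sinusoidal endothelium (1.81 ± 0.28, SE), Slc4a1 of red cells (0.90 ± 0.18), Marco of macrophages (0.70 ± 0.19), Plin4 of adipocytes (0.70 ± 0.21), Sox9 of cholangiocytes (0.48 ± 0.17) and Cd79b of lymphocytes (0.35 ± 0.13). The lower markers were the stellate cell genes Col3a1 (-1.53 ± 0.24) and Pdgfrb (-0.36 ± 0.12) and the exocrine pancreas gene Cela1 (-1.31 ± 0.15). By sign, 9 of 10 macrophage, 6 of 10 endothelial and 2 of 3 red cell markers were lower, opposite to the named marker. All 5 cholangiocyte and all 4 adipocyte markers were higher, as were 7 of 9 lymphocyte markers. Of 10 stellate cell markers 6 were lower and 4 higher, and of 4 exocrine pancreas markers 3 were lower and 1 higher. Cela1 had a mean signal at percentile 86.9 of all probe sets, and Prss2, Ctrb1 and Cpa1 at percentiles 57.3, 41.3 and 30. Whether the Cela1 signal came from pancreatic cells was not tested. The summed linear signal of 10 sinusoidal endothelial markers was 4696 and 2321 in control and 3707 and 3017 in starved livers. This sum was highest on control 1, as Srebf1 and both Stard4 probe sets were. It was lowest on control 2, while those probe sets were lowest on starved 1. Summed stellate cell markers were 5962 and 3333 against 4572 and 4767, also highest on control 1, and no marker was listed at 0. The part of these markers in the member values was not tested. Acute phase genes were high on control 2. Of 24 measured, 7 were lower in starved liver and 0 higher at an unadjusted p under 0.05, the median change was -0.62, and the summed linear signal was 235480 and 368621 in control and 202476 and 208560 in starved livers. Saa4, Hamp and Steap4, a serum amyloid, the iron hormone hepcidin and a metalloreductase, changed by -0.93, -1.28 and -1.72. The brightest probe sets of Srebf2, Insig2, Scarb1 and Mbtps1 were all higher on control 2 than on control 1, and the part of the acute phase difference in their values was not tested. Srebf1 and Stard4 changed by -2.82 and -1.50 without control 2, and by -2.01 and -1.35 without control 1.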

How the data were processed

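Total RNA of 4 mouse livers was hybridised to an Affymetrix array. The authors deposited log2 signals; the submitters' processing notes name affy and RMA, without versions. They ran from 2.83 to 15.47, and array medians from 6.71 to 6.74. Because RMA equalises the arrays' distributions, a global shift in RNA could not be seen; no detection calls were used.

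Of 22690 probe sets, 64 Affymetrix controls were left out. Of the rest 20380 had 1 gene symbol, 691 several and 1555 none in the annotation used; the last 2 classes are unnamed here. Symbols of 20351 were updated through Entrez identifiers in the GRCm38.p6 RefSeq table. All 22626 probe sets were fitted with lmFit and eBayes in limma 3.58.1 (R 4.3.3), two-sided, with Benjamini-Hochberg adjustment and 5.83 total degrees of freedom. The median SE of a change was 0.13, and the small number of arrays limits precision. A gene is represented by its brightest probe set, chosen again from the remaining arrays when an array was left out. The fit was tested on simulated data.

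Members and lists were chosen with earlier results of these data known. The text names all member probe sets, the 4 other genes of each pathway list with the smallest p and any that passed, 3 acute phase genes, and the 3 nearest profiles.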

Additional observations from a re-analysis of the deposited data

How the results depend on the processing

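Across 14 alternatives, 205 of 230 recomputed values kept their direction and side of the threshold or stayed close. The count of 13 probe sets past the adjusted test was 8 with 1 probe set per gene, 23 without _x_at and _s_at probe sets, 59 with trend and robust settings, 2592 at an unadjusted p and 2 to 57 with 1 array left out. With the replicate number as a block it was 0 (limma), and Srebf1 and Stard4 then had adjusted p-values of 0.276 and 0.334. The correlation of same-numbered deviations was 0.038, so the numbers were not taken as pairs. In 0 of the alternatives did a member pass after adjustment.

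With 1 array left out, Scap changed by -0.013 to 0.070, Scarb1 by -0.44 to 0.20 and Insig2 by -0.0063 to 0.75. The brightest probe set was chosen again each time, so the Scarb1 and Insig2 ranges join values of different probe sets. The low end of both came from a probe set other than the one that is brightest over all arrays. List medians ran from -0.091 to 0.093 for SREBP processing, 0.049 to 0.11 for LXR genes, -1.81 to -1.31 for SREBP-2 targets and -0.51 to -0.31 for SREBP-1 targets. The SREBP-1 median was -0.64 both without the lowest 40% of probe sets and with the mean of all probe sets of a gene. A group left with 1 array takes its spread from the remaining pair. The causes were not tested.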
